A study of Mus musculus with 6 samples.

Results

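The forkhead genes encode transcription factors that share a DNA-binding domain, the forkhead or winged helix. They were followed here in fetal mouse lungs labelled wild type or Smad1 CKO, a conditional knockout of Smad1 in the epithelium. Members were all genes whose platform symbol is Fox, a lower-case letter from a to s and a number, which gave 37 of the 18193 genes on the array. They were read by 82 of 45037 probe sets. Where a gene had several probe sets, the brightest by mean over the 6 arrays stood for it. The transcript on the opposite strand of Foxl2 carries a suffix after the number and was not counted as a member.

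Total RNA came from the left lung lobe of embryos of strain C57/BL6 at E18.5, shortly before birth. The 3 Smad1 CKO embryos carried a conditional knockout of Smad1 in the lung epithelium, and the 3 wild type embryos were labelled as wild type. Mice were collected as 3 pairs, each with 1 Smad1 CKO and 1 wild type animal, and every animal has an Affymetrix Mouse430_2 array of its own. The Cre driver, the deleted part of Smad1 and whether the controls carried any engineered allele are details not given in these sources. The lobe also holds endothelium, mesenchyme and other cells in which Smad1 was not targeted, so fewer cells of a type and less RNA per cell cannot be told apart in these values.

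Forkhead factors divide the work of the lung among its tissues. FOXA1 and FOXA2 open chromatin in the epithelium and act with NKX2-1 on surfactant genes, FOXP1, FOXP2 and FOXP4 repress transcription in the developing epithelium, and FOXJ1 switches on the genes of motile cilia. FOXF1 and FOXF2 act in the mesenchyme downstream of Hedgehog signals, and FOXF1 is also required by lung endothelium. FOXM1 drives genes of cell division, FOXO proteins are kept out of the nucleus by AKT kinases, and FOXH1 recruits SMAD2 and SMAD3 to targets of Nodal. SMAD1 itself carries signals of bone morphogenetic proteins.

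Levels are given as log2 of the deposited intensity plus 1, and differences as Smad1 CKO minus wild type within pairs on the same log2 scale. Genotype was tested with limma, with the pair as a block and Benjamini-Hochberg adjustment over all 45037 probe sets. Smad1 itself, the targeted gene, was at 10.12, 10.62 and 9.05 in Smad1 CKO lungs 1 to 3 and at 10.004, 10.09 and 9.53 in wild type lungs 1 to 3. Its difference was 0.06 ± 0.51 (limma, adjusted p = 0.904), so this probe set did not show lower Smad1 in the Smad1 CKO lungs. A probe set outside the deleted part would not check the labels. Smad1 CKO 3 stood apart: its control probe sets for 18S ribosomal RNA averaged 2194, where the other 5 arrays had 154.0 to 201.0. The upper quartile of intensity was 170.3 in Smad1 CKO 3 and 222.3 to 283.8 elsewhere. Smad1 CKO 1 had a log2 level of 3.78 for the Y-linked gene Eif2s3y, against 7.06 to 9.04 on the others, so pair 1 holds a difference between sexes beside that of genotype. Labels do not say whether embryos of a group came from separate litters, and the p-values measure only the spread between these 3 pairs.

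No forkhead gene passed the adjusted threshold. The lowest adjusted p among the 37 members was 0.367, and in the whole array 0.00222% of probe sets passed. At an unadjusted p under 0.05, 3 members were lower in Smad1 CKO lungs (Foxf2, Foxf1 and Foxn2), against 9.96% of all genes. At the same level 4 were higher (Foxh1, Foxl1, Foxe3 and Foxb2), against 4.96% of all genes. In all 3 pairs 11 members were lower and 11 were higher, against 29.3% and 21% of all genes. The median difference of the 37 members was 0.06, with 0.11, -0.05 and 0.14 in pairs 1 to 3, while that of all genes was -0.09.

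The direction of a forkhead gene followed its brightness, as it did for all genes. Genes of the array were split by mean level into 3 classes of equal size, dim (up to 6.12), middle (up to 8.15) and bright. Of the 12 bright members, 8 were lower in all 3 pairs and 0 were higher, against 50.9% and 2.18% of all bright genes. Their median difference was -0.43, beside -0.48 for all bright genes. Of the 11 dim members, 7 were higher in all pairs and 0 lower, against 41.6% and 5.69% of all dim genes, and their median was 0.40 beside 0.24. The 14 members of the middle class were divided: 4 were higher and 3 lower in all pairs, against 19% and 31.4% of all genes of that class, with a median of 0.14 beside -0.12. Across the 37 members the difference correlated with mean level at Pearson's r = -0.68, a description over genes that share the same 6 arrays, beside -0.60 over all 18193 genes.

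**Figure D1:**
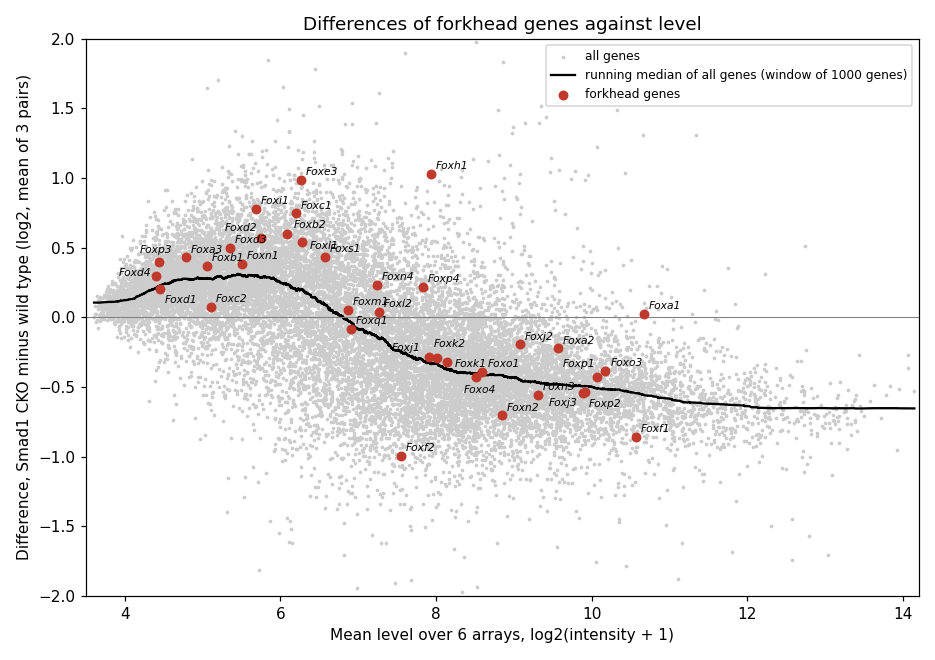
Mean level over the 6 arrays (x axis, log2 of intensity plus 1) against the difference Smad1 CKO minus wild type (y axis, log2, mean of 3 pairs) for the 37 forkhead genes (labelled) and all 18193 genes (grey), of which 21 lie outside the y range. The black line is the median of all genes in windows of 1000 genes, and most forkhead genes lie near it. Foxf2 lies below it at -0.99. Foxh1, Foxe3, Foxi1, Foxc1 and Foxa1 lie above it at 1.03, 0.99, 0.78, 0.75 and 0.03.

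Smad1 CKO 3 differed most from the other arrays. It was outside the range of the other 5 arrays for 24 of the 37 members, lowest for 13 and highest for 11, and the same held for 76.3% of all genes. Pair 3 gave the largest of the 3 pair differences for 22 members, a count not made over all genes. Pair 2 gave the smallest for 26 members, as it did for 69.5% of all genes. The median SD between the 3 Smad1 CKO arrays was 0.52 over the members, against 0.16 between the 3 wild type arrays. After a further cyclic loess normalization between arrays, which removes trends with brightness, 4 members were lower in all 3 pairs and 10 higher, against 17.5% and 23.6% of all genes, and the median difference was 0.18 beside 0.05 for all genes.

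In wild type lungs the order of forkhead genes by intensity began with Foxf1 at 11.004 ± 0.31, Foxa1 at 10.66 ± 0.13, Foxo3 at 10.36 ± 0.37, Foxp1 at 10.28 ± 0.17, Foxj3 at 10.18 ± 0.14 and Foxp2 at 10.16 ± 0.23 (SD, n = 3). Each probe set has its own hybridisation efficiency, so this is an order of intensities and not of mRNA amounts. Foxf1 lay at percentile 95.5 of all genes and Foxp2 at percentile 90.3. At the dim end were Foxd1, Foxd4 and Foxp3, the last of these the factor of regulatory T cells, at 4.35 ± 0.06, 4.25 ± 0.09 and 4.24 ± 0.20. No detection calls were used, so it was not shown that such dim probe sets measured the gene at all. Of the 36 neighbours in the order, 28 overlapped in their wild type arrays and cannot be ranked against each other. The first gap without overlap separated Foxp2 from Foxa2, at rank 7 with 9.68 ± 0.23. In Smad1 CKO lungs Foxa1 held the first place and Foxf1 the next, at 10.69 ± 1.05 and 10.15 ± 1.00, and ranks 3 to 8 were those of wild type lungs.

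**Figure D2:**
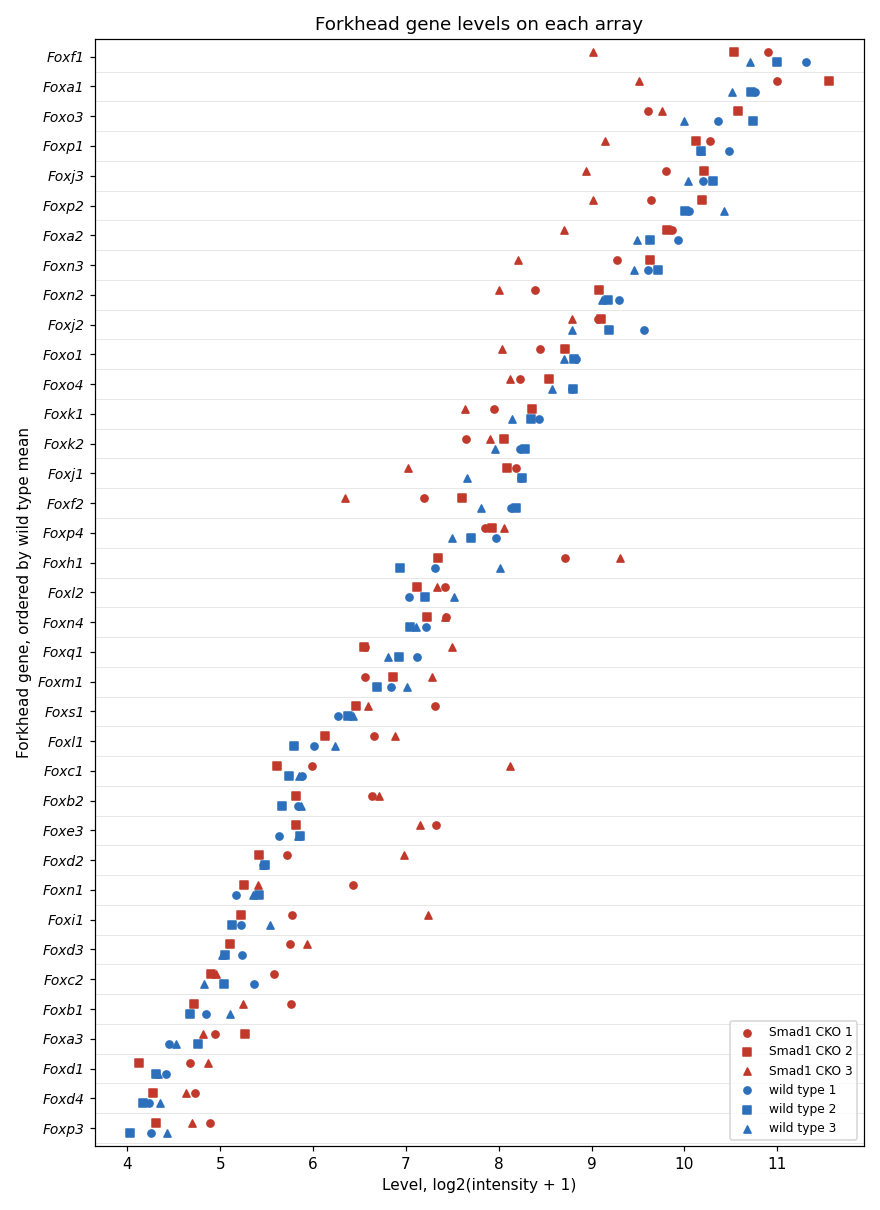
Level of each of the 37 forkhead genes (x axis, log2 of intensity plus 1) on every array, with the 3 Smad1 CKO arrays in red above the 3 wild type arrays in blue and genes ordered from the highest wild type mean at the top. Smad1 CKO 3 (red triangles) is the lowest point of most bright genes, such as Foxf1 at 9.01, and the highest of several dimmer ones, such as Foxc1 at 8.12.

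Among the epithelial factors, Foxa1 and Foxa2 did not share the lower values of most bright genes outside pair 3. Foxa1 (chromosome 12, 57540628 to 57548029, GRCm38.p6) was at 10.99, 11.55 and 9.52 in Smad1 CKO lungs 1 to 3, against 10.76, 10.71 and 10.51 in wild type lungs 1 to 3. It was above every wild type array in Smad1 CKO lungs 1 and 2 and below all of them in lung 3. Its mean difference over the pairs was 0.03 ± 0.94 (SD, n = 3), and the 95% interval reached from -0.87 to 0.92 (limma, adjusted p = 0.972). Without pair 3 it was 0.54 (unadjusted p = 0.0479, adjusted p = 0.566). After cyclic loess normalization the pair values were 0.50, 0.85 and 0.43, with a mean of 0.60 (unadjusted p = 0.01, adjusted p = 0.336), so all 3 pairs then had the higher value in the Smad1 CKO lung.

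Foxa2 (chromosome 2, 148042877 to 148046969), the closest relative of Foxa1 in the endoderm, was at 9.86, 9.82 and 8.71 in Smad1 CKO lungs, against 9.93, 9.63 and 9.49 in wild type lungs. The groups overlapped, and pair 2 ran against the other pairs. The difference was -0.22 ± 0.51, with a 95% interval of -0.84 to 0.39 (adjusted p = 0.594), and it turned to 0.28 after cyclic loess normalization. Foxa3, which acts mainly in liver and gut, was dim at 4.94, 5.27 and 4.82 in Smad1 CKO lungs, against 4.45, 4.76 and 4.52 in wild type lungs. Its groups did not overlap, and the difference was 0.43 ± 0.12 (unadjusted p = 0.0587, adjusted p = 0.367), beside a median of 0.24 for all dim genes. In all, the groups did not overlap for 3 members that were lower (Foxf2, Foxn2 and Foxo4) and 3 that were higher (Foxa3, Foxs1 and Foxn4), against 6.05% and 4.25% of all genes. Foxs1 and Foxn4 are named here for that count.

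The promoters of Foxa1 and Foxa2, the epithelial pair, and of Foxf2, the member with the lowest difference, are shown for comparison (RefSeq, GRCm38.p6, 250 bases before to 50 after a listed start). Capitals mark matches to the forkhead motif TGTTTAC, its variant TGTTTGC or the BMP-type SMAD motif GGCGCC, searched on both strands.
Foxa1, chr12:57546062-57546361, minus strand: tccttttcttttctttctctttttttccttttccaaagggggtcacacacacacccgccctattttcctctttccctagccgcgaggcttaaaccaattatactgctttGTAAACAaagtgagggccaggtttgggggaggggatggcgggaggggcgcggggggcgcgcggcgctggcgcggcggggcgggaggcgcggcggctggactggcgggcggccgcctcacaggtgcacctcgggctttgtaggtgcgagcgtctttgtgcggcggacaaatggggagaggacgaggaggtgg
Foxa2, chr2:148045415-148045714, minus strand: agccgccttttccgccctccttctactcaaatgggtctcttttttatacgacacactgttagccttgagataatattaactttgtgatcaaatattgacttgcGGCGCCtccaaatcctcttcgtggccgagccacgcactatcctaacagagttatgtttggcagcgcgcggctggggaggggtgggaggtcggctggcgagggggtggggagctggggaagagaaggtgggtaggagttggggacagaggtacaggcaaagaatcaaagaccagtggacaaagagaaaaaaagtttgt
Foxf2, chr13:31625566-31625865, plus strand: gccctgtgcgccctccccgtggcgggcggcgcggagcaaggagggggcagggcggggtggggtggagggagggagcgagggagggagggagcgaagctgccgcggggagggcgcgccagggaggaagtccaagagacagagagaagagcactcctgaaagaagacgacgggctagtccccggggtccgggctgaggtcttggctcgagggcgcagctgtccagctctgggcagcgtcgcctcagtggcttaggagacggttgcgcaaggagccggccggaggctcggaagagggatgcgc
The Foxa1 window holds the reverse complement of the forkhead motif, GTAAACA, beginning 141 bases before its listed start, which lies inside the gene's bounds given above and not at their outer end. The Foxa2 window shown, which is that of 1 of its 3 listed starts, holds GGCGCC beginning 147 bases before that start. It was chosen for this match, and the windows of the other Foxa2 starts, among them the outermost, hold none of the 3 motifs. In the Foxf2 window none of the 3 motifs was found. Promoters were listed for 24 of the 37 members, 29 windows in all. TGTTTAC or its complement stood in 1 of these (3.65% of all 32851 windows), TGTTTGC in 2 (5.07%) and GGCGCC in 5 (11.9%), those of Foxa2, Foxa3, Foxc1 and Foxp1. A match is a run of letters and not a site shown to be bound.

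Genes that act with or under FOXA factors in the epithelium were lower in part. Of 26 measured members of this list, 12 were lower and 2 higher in all 3 pairs (higher: 2.18% of all bright genes). In limma 0 passed the adjusted threshold. At an unadjusted p under 0.05, 7 were lower and 1 higher, against 15.6% and 0.907% of all bright genes. The list median was -0.52, with -0.11, 0.06 and -1.52 in pairs 1 to 3, beside -0.48 for all bright genes, a class that holds 21 of the 26 and of which 50.9% were lower in all pairs. It was -0.06 without pair 3 and turned to 0.06 after cyclic loess normalization and to 0.04 without Smad1 CKO 3 (unpaired). Sftpa1, the gene of surfactant protein A, was at 7.89, 8.89 and 6.23 in Smad1 CKO lungs, against 12.70, 13.24 and 12.57 in wild type lungs, a difference of -5.17 ± 1.04. The desaturase Scd1 was at -3.86, the phospholipid acyltransferase Lpcat1 at -2.28 and the lipid transporter of lamellar bodies, Abca3, at -1.88. These 4 genes were lower in every pair while Foxa1 was higher in pairs 1 and 2. Epithelial markers on the same arrays were Nkx2-1, Cdh1, Epcam and Sftpc. Their summed intensity was 6926 to 25375 in Smad1 CKO lungs, against 25729 to 27866 in wild type lungs. Their median differences were -0.02, 0.17 and -1.26 in pairs 1 to 3. Sftpc, itself a surfactant gene, was the brightest and weighs most in the sum. In pairs 1 and 2 it differed by -0.50 and -0.27. Cdh1 differed there by -0.06 and 0.22, Nkx2-1 by 0.03 and 0.11, and Epcam by 0.04 and 0.69. The part of epithelial cell number in the FOXA values was not tested.

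The FOXP repressors differed among themselves in direction. Foxp1 (chromosome 6, 98925342 to 99522746) was at 10.28, 10.13 and 9.14 in Smad1 CKO lungs, against 10.48, 10.18 and 10.18 in wild type lungs. It was lower in all 3 pairs, but by 0.05 to 0.20 in pairs 1 and 2, and the difference was -0.43 ± 0.53 (adjusted p = 0.387). All 8 of its probe sets were lower, by -0.63 to -0.02, while the representative one was at -0.13 without pair 3 and turned to 0.11 after cyclic loess normalization. Foxp2 (chromosome 6, 14901349 to 15441977), expressed in the distal epithelium, was at 9.64, 10.19 and 9.01 in Smad1 CKO lungs, against 10.05, 10.003 and 10.43 in wild type lungs. Pair 2 ran the other way, and the difference was -0.55 ± 0.81 (adjusted p = 0.389), with all 6 probe sets between -0.95 and -0.04. It was -0.11 without pair 3 and -0.02 after cyclic loess normalization.

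Foxp4 (chromosome 17, 47867133 to 47924632), which overlaps with Foxp1 and Foxp2 in function, was instead at 7.85, 7.92 and 8.06 in Smad1 CKO lungs, against 7.97, 7.70 and 7.49 in wild type lungs. Its difference was 0.22 ± 0.34 (adjusted p = 0.544), its 3 probe sets lay between 0.22 and 0.40, and the groups overlapped. Without pair 3 it was 0.05, and after cyclic loess normalization 0.54. Of 20 measured corepressors and partners of FOXP proteins, 9 were lower and 1 higher in all pairs, and 15 members were in the bright class, where 50.9% of all genes were lower in all pairs. The list median was -0.41, with -0.24, -0.02 and -0.93 in pairs 1 to 3, and it was -0.11 without pair 3 and turned to 0.03 after cyclic loess normalization. The zinc finger repressors Zbtb16 and Zbtb7a were at -0.92 and -0.68, the NuRD subunit Gatad2a at -0.69 and the deacetylase Hdac2 at -0.69. Without pair 3 these last, Gatad2a and Hdac2, were at -0.34 and -0.30, and after cyclic loess normalization at -0.15 and -0.14. None of the 20 passed the adjusted threshold. At an unadjusted p under 0.05, 3 were lower and 0 higher, against 15.6% and 0.907% of all bright genes.

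Foxj1, the switch for motile cilia, was close to its wild type level in pairs 1 and 2. Its levels were 8.19, 8.08 and 7.03 in Smad1 CKO lungs, against 8.24, 8.25 and 7.66 in wild type lungs. The difference was -0.29 ± 0.31, with a 95% interval of -0.80 to 0.23 (adjusted p = 0.438), and the pair values were -0.05, -0.17 and -0.63. Of 36 measured motile cilium genes 14 were lower and 5 higher in all pairs, against 29.3% and 21% of all genes. Their median was -0.22, with -0.18, -0.01 and -0.51 in pairs 1 to 3, and it was -0.12 without pair 3 and -0.07 after cyclic loess normalization. Among them Lrrc6, needed for assembly of dynein arms, was at -0.68, the radial spoke gene Rsph4a at -0.74, Capsl at -0.73, and the cilium regulator Rfx2 at 0.89. Capsl was at -0.32 without pair 3. The 5 measured defining markers of ciliated cells (Dnaic1, Ccdc39, Rsph1, Dnah5 and Tekt1) lay between -0.32 and 0.03, and 0 of them had the same direction in all pairs. Their summed intensity was 440.0 to 831.0 in Smad1 CKO lungs, against 702.5 to 769.1 in wild type lungs. At least Rsph1 is also among the 36 motile cilium genes, so markers and list are not independent.

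Among mesenchymal forkhead genes, Foxf2 and Foxf1 held the lowest differences of the family, while those of Foxl1, Foxc1 and Foxd1, given below, were positive. Foxf2 (chromosome 13, 31625816 to 31631406) was at 7.20, 7.60 and 6.35 in Smad1 CKO lungs, against 8.13, 8.19 and 7.81 in wild type lungs. Every Smad1 CKO array lay below every wild type array. The difference was -0.99 ± 0.44, a 1.99-fold lower intensity, with a 95% interval of -1.57 to -0.42 (unadjusted p = 0.00572, adjusted p = 0.367). The median of all genes of the middle class was -0.12. Without pair 3 the difference was -0.76, and after cyclic loess normalization it was -0.73, with -0.67, -0.55 and -0.97 in the 3 pairs. Its other probe set, a dim one, gave 0.14.

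Foxf1 (chromosome 8, 121084386 to 121088154) was at 10.89, 10.54 and 9.01 in Smad1 CKO lungs, against 11.31, 11.001 and 10.70 in wild type lungs. Each Smad1 CKO lung was below its own wild type partner, although Smad1 CKO 1 was above wild type 3. The difference was -0.86 ± 0.72, a 1.81-fold lower intensity (unadjusted p = 0.0313, adjusted p = 0.367), and the other probe set gave -0.33, which turned to 0.10 after cyclic loess normalization. Pair 3 gave -1.69, and without it the difference was -0.44, the mean of the -0.42 and -0.47 of pairs 1 and 2. The median of all bright genes without pair 3 was -0.16. After cyclic loess normalization the representative probe set was at -0.29, with -0.14, -0.45 and -0.28 in the 3 pairs.

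**Figure D3:**
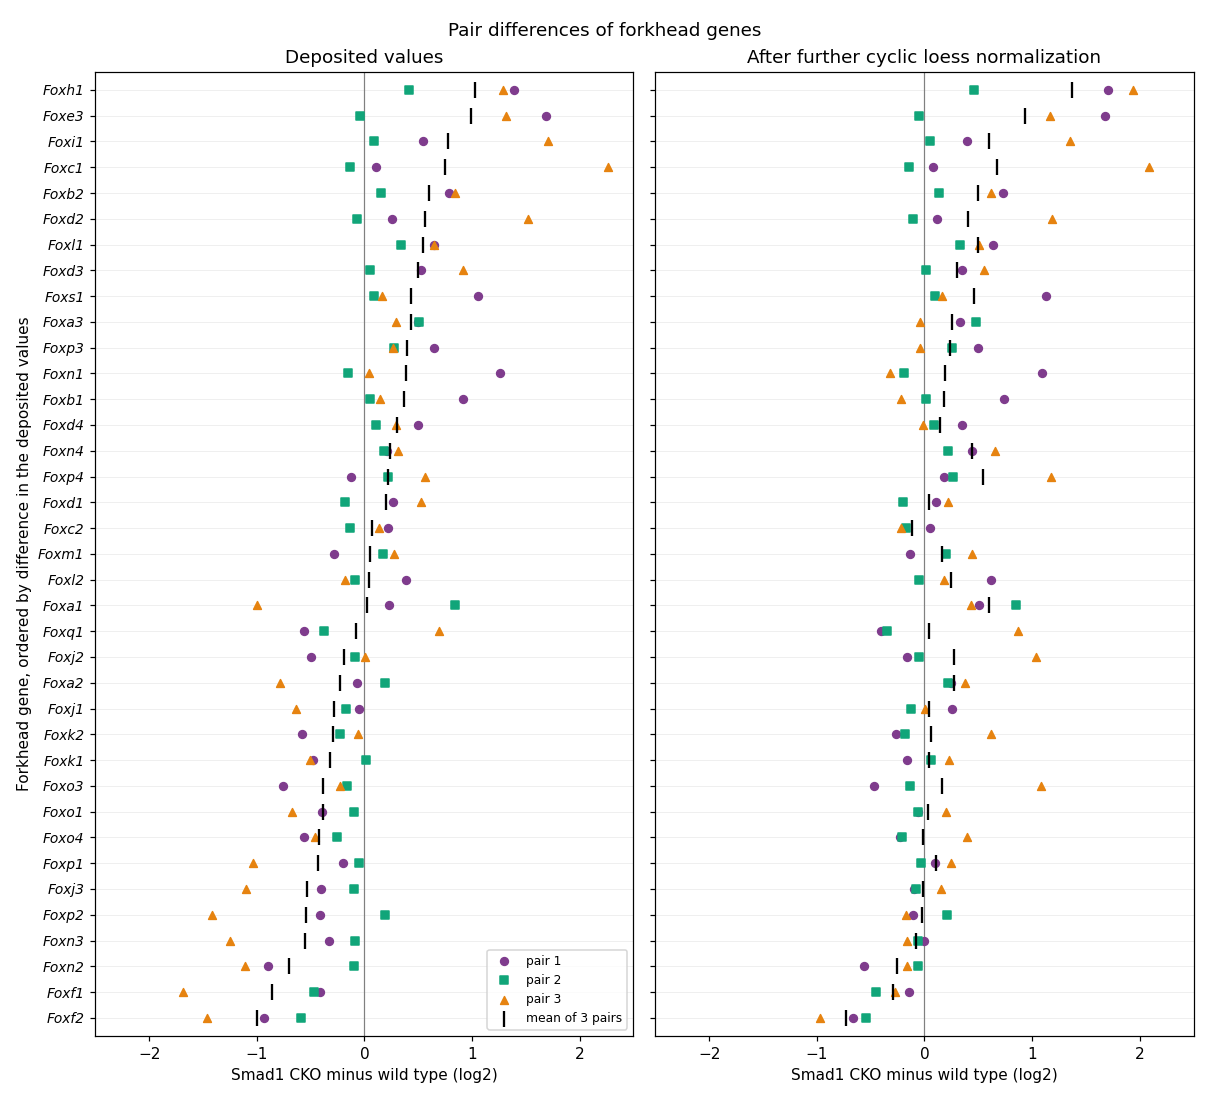
Difference Smad1 CKO minus wild type (x axis, log2) of each of the 37 forkhead genes in pairs 1 to 3 (coloured points) and their mean (black bars), from the deposited values (left) and after a further cyclic loess normalization (right), with the lowest mean at the bottom. Foxf2 and Foxf1 are negative and Foxh1 is positive in all 3 pairs of both panels, while Foxa1 has 1 negative pair on the left and none on the right.

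Of 29 measured endothelial and mesenchymal genes associated with FOXF1, 18 were lower and 1 higher in all 3 pairs, against 50.9% and 2.18% of all bright genes. The list median was -0.51, with -0.29, -0.27 and -1.35 in pairs 1 to 3. It was -0.37 without pair 3, beside -0.16 for all bright genes, and -0.24 without Smad1 CKO 3 (unpaired). After quantile normalization it was -0.09 and after cyclic loess normalization -0.02. In limma 0 passed the adjusted threshold. At an unadjusted p under 0.05, 13 were lower and 1 higher, against 15.6% and 0.907% of all bright genes. In pair 2, where the median of all bright genes was -0.03, this list lay at -0.27, and 24 of its members belong to the bright class. Car4, the carbonic anhydrase found on alveolar capillary cells, was at 7.67, 7.83 and 7.11 in Smad1 CKO lungs, against 9.07, 9.37 and 8.46 in wild type lungs, a difference of -1.43 ± 0.09 (adjusted p = 0.367). The receptor gene Tie1 was at -0.92, Tmem100 at -1.20 and the endothelial cadherin Cdh5 at -1.12, all lower in the 3 pairs. Endothelial markers (Cdh5, Pecam1, Kdr and Tek) were lower in all pairs for 4 of 4, with a median of -0.64 without pair 3 and -0.44 after cyclic loess normalization. Their summed intensity was 1575 to 5085 in Smad1 CKO lungs, against 5011 to 7531 in wild type lungs. Mesenchymal markers (Tbx4, Col1a1, Pdgfra and Tcf21) were lower in all pairs for 3 of 4, with a median of -0.22 without pair 3 and -0.21 after cyclic loess normalization. Their summed intensity was 3554 to 16960 in Smad1 CKO lungs, against 15592 to 19512 in wild type lungs. All of these markers are bright genes, of which 50.9% were lower in all pairs. At least Cdh5 and Tbx4 also belong to the list above, so markers and list are not independent. The part of endothelial and mesenchymal cells in the values of Foxf1 and Foxf2 was not tested.

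The FOXF genes have other forkhead genes as genomic neighbours. On chromosome 8 of GRCm38.p6, Foxc2 begins 28 kb after Foxf1, and Foxl1 follows after a further 8.8 kb. Foxl1, a factor of gut and lung mesenchyme, was at 6.65, 6.13 and 6.88 in Smad1 CKO lungs, against 6.01, 5.79 and 6.23 in wild type lungs. It was higher in each pair, by 0.65, 0.34 and 0.65, although Smad1 CKO 2 was below wild type 3. The difference was 0.54 ± 0.18 (unadjusted p = 0.0294, adjusted p = 0.367), and it was 0.49 both without pair 3 and after cyclic loess normalization. Foxc2, known from lymphatic valves, was dim at 5.58, 4.90 and 4.96 in Smad1 CKO lungs, against 5.36, 5.04 and 4.82 in wild type lungs, with a difference of 0.07 ± 0.19 (adjusted p = 0.823) that turned to -0.11 after cyclic loess normalization.

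On chromosome 13, Foxf2 lies 64.8 kb from Foxq1 and 175.2 kb from Foxc1. Foxq1 was at 6.56, 6.55 and 7.50 in Smad1 CKO lungs, against 7.12, 6.93 and 6.81 in wild type lungs, lower in pairs 1 and 2 and higher in pair 3 (difference -0.08 ± 0.68, adjusted p = 0.877). Foxc1, which acts in vessels and mesenchyme, was at 5.99, 5.61 and 8.12 in Smad1 CKO lungs, against 5.88, 5.74 and 5.85 in wild type lungs. Its difference of 0.75 ± 1.32 (adjusted p = 0.403) rested on Smad1 CKO 3 alone and was -0.01 without pair 3. Foxd1, a marker of stromal progenitors in the kidney that is also found in lung stroma, was dim at 4.68, 4.13 and 4.86 in Smad1 CKO lungs, against 4.42, 4.31 and 4.33 in wild type lungs (difference 0.20 ± 0.36, adjusted p = 0.580).

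Foxm1, the driver of mitotic genes, had a difference near 0, while most genes of cell division lay lower. It was at 6.56, 6.86 and 7.28 in Smad1 CKO lungs, against 6.84, 6.69 and 7.01 in wild type lungs, with overlapping groups. The difference was 0.06 ± 0.30, with a 95% interval of -0.45 to 0.56 (adjusted p = 0.881), and all 4 of its probe sets lay between -0.0038 and 0.061. Of 30 measured FOXM1 and mitotic genes, 19 were lower and 1 higher in all 3 pairs, against 29.3% and 21% of all genes and, for lower, 31.4% of middle and 50.9% of bright genes. The list median was -0.49, with -0.56, -0.16 and -1.07 in pairs 1 to 3. It was -0.32 without pair 3 and -0.26 after cyclic loess normalization. The phosphatase Cdc25b was at -0.81, the spindle protein gene Tpx2 at -0.90, Lin54 of the DREAM complex at -1.05 and the checkpoint kinase Bub1 at -1.11. Without pair 3, Lin54 was at -0.69 and Bub1 at -0.59. None of the 30 passed the adjusted threshold, and 10 were lower and 0 higher at an unadjusted p under 0.05. At that p 9.96% of all genes were lower and 4.96% higher, and 12.7% of middle and 15.6% of bright genes were lower. Mki67 and Top2a, markers of dividing cells, had a summed intensity of 212.1 to 1578 in Smad1 CKO lungs, against 1217 to 1741 in wild type lungs. Mki67 is itself among the 30 genes, so these markers are not independent of the list. Foxm1 was in the middle class, and 10 of the 30 genes were in the bright class. A difference between Foxm1 and the list was not tested.

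The FOXO genes had differences of -0.43 to -0.38, beside -0.48 for all bright genes. Foxo3 (chromosome 10, 42181845 to 42276695) was at 9.60, 10.58 and 9.76 in Smad1 CKO lungs, against 10.36, 10.74 and 9.99 in wild type lungs. All 3 pairs were lower and the groups overlapped, with a difference of -0.38 ± 0.33 (adjusted p = 0.376) that turned to 0.16 after cyclic loess normalization. Foxo1 (chromosome 3, 52268337 to 52350109) was at 8.44, 8.71 and 8.04 in Smad1 CKO lungs, against 8.83, 8.81 and 8.71 in wild type lungs, a difference of -0.39 ± 0.29 (adjusted p = 0.372) that was -0.25 without pair 3 and 0.03 after cyclic loess normalization. Foxo4 (chromosome X, 101254261 to 101260873) was at 8.23, 8.54 and 8.12 in Smad1 CKO lungs, against 8.79, 8.80 and 8.57 in wild type lungs. Its groups did not overlap, and its difference was -0.43 ± 0.16 (unadjusted p = 0.0654, adjusted p = 0.367), but -0.02 after cyclic loess normalization. The other probe set of Foxo4, a dim one, gave 0.22 and was higher in all 3 pairs. The 4 probe sets of Foxo1 ranged from -0.53 to 0.26.

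Of 33 measured FOXO-responsive genes, 13 were lower and 2 higher in all pairs, against 29.3% and 21% of all genes, and 18 of them were in the bright class. The list median was -0.47, with -0.38, -0.02 and -0.88 in pairs 1 to 3, and it was -0.15 without pair 3 and -0.02 after cyclic loess normalization. The autophagy gene Gabarapl1 was at -0.83, the stress-induced Sesn1 at -0.84, the metabolic kinase Pdk4 at -0.71 and the deacetylase Sirt1 at -0.68. Of 25 measured kinases and regulators of FOXO proteins, 17 were lower and 0 higher in all pairs, against 50.9% and 2.18% of all bright genes. The list median was -0.51, with -0.51, -0.11 and -1.01 in pairs 1 to 3, and it was -0.21 without pair 3 and -0.05 after cyclic loess normalization. They included the PI3-kinase subunit Pik3cb at -0.77, the mTOR inhibitor Tsc2 at -0.81 and the acetyltransferase Ep300 at -0.64, with 19 of the 25 in the bright class. None of these genes passed the adjusted threshold. At an unadjusted p under 0.05, 7 of each list were lower and 0 higher, against 15.6% and 0.907% of all bright genes. Of all genes, 9.96% were lower and 4.96% higher at that p. Both medians were near those of bright genes (-0.48).

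**Figure D4:**
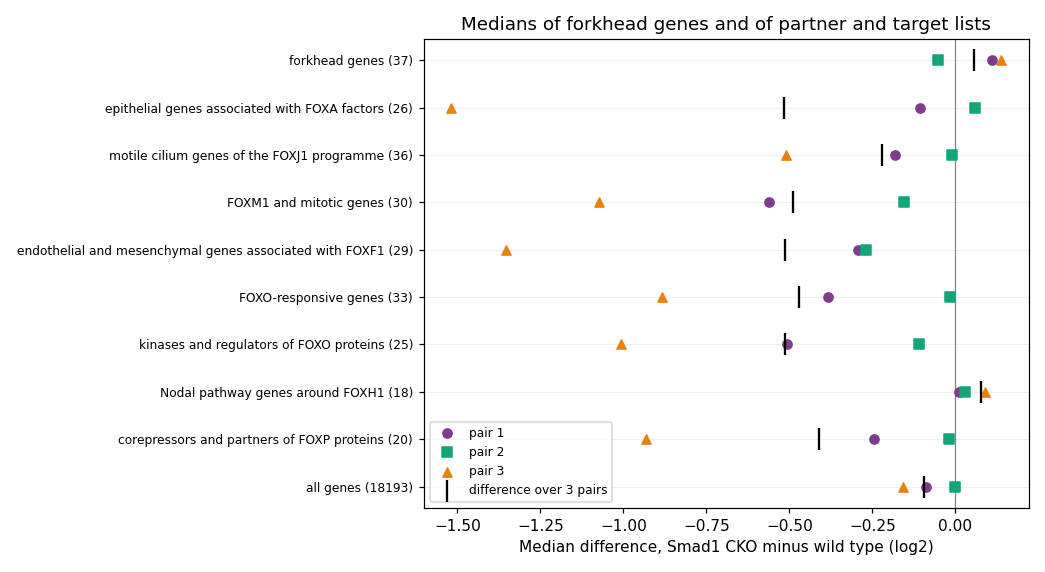
Median difference Smad1 CKO minus wild type (x axis, log2) in pairs 1 to 3 (coloured points) and over all pairs (black bars) for the 37 forkhead genes, 8 lists of their partners and targets and all 18193 genes, with the number measured in brackets. Pair 3 gives the lowest median of most lists, such as -1.35 for the genes associated with FOXF1, while the forkhead genes (0.06) and the Nodal pathway genes (0.08) lie above 0.

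The broadly expressed genes Foxk1, Foxk2, Foxj3, Foxn2 and Foxn3 had negative differences, which lay closer to 0 after cyclic loess normalization. Foxk1, a regulator of metabolism and autophagy, was at 7.95, 8.36 and 7.64 in Smad1 CKO lungs, against 8.43, 8.34 and 8.14 in wild type lungs, and Foxk2 was at 7.64, 8.06 and 7.90, against 8.23, 8.29 and 7.96. Their differences were -0.32 ± 0.29 (adjusted p = 0.400) and -0.29 ± 0.27 (adjusted p = 0.424). Foxn2 (chromosome 17, 88440704 to 88490533) was at 8.39, 9.08 and 8.003 in Smad1 CKO lungs, against 9.29, 9.18 and 9.12 in wild type lungs, without overlap, although pair 2 differed by only -0.10. Its difference was -0.70 ± 0.53 (unadjusted p = 0.0344, adjusted p = 0.367) and -0.26 after cyclic loess normalization. Foxj3 was at 9.80, 10.21 and 8.93 in Smad1 CKO lungs, against 10.20, 10.31 and 10.03 in wild type lungs (difference -0.53 ± 0.51, adjusted p = 0.367). Foxn3, linked to cell cycle checkpoints, was at 9.27, 9.63 and 8.21 in Smad1 CKO lungs, against 9.61, 9.71 and 9.46 in wild type lungs (difference -0.56 ± 0.61, adjusted p = 0.367). Without pair 3, Foxj3 was at -0.25 and Foxn3 at -0.21, and after cyclic loess normalization they were at -0.01 and -0.07.

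Foxh1, the partner of SMAD2 and SMAD3 in Nodal signalling, had the highest difference of the family. Foxh1 (chromosome 15, 76667829 to 76671614) was at 8.71, 7.35 and 9.30 in Smad1 CKO lungs, against 7.32, 6.93 and 8.02 in wild type lungs. Smad1 CKO lungs 1 and 3 were above every wild type lung, and lung 2 was above its partner but below wild type 3. The difference was 1.03 ± 0.54, a 2.04-fold higher intensity, with a 95% interval of 0.40 to 1.66 (unadjusted p = 0.00731, adjusted p = 0.367). Its other probe sets gave 0.44 and 0.57, both also higher in all 3 pairs. The difference was 0.90 without pair 3, and after cyclic loess normalization it was 1.37, with 1.70, 0.46 and 1.94 in the 3 pairs.

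Genes around FOXH1 in the Nodal pathway showed no common direction. Of 18 measured members, 5 were lower and 5 higher in all pairs, against 29.3% and 21% of all genes, and the median was 0.08, with 0.01, 0.03 and 0.09 in pairs 1 to 3. The Nodal antagonist Lefty1 was at 5.67, 5.15 and 6.18 in Smad1 CKO lungs, against 5.11, 4.87 and 5.36 in wild type lungs, a difference of 0.55 ± 0.27 (unadjusted p = 0.0352, adjusted p = 0.367). The co-receptor Cfc1 was at 0.46, the common mediator Smad4 at -0.65 and the repressor of FOXH1, Drap1, at -0.67. Without pair 3, Smad4 was at -0.30 and Drap1 at -0.19, and after cyclic loess normalization they were at -0.05 and -0.16. Lefty1 is a dim gene, a class in which the median difference of all genes was 0.24.

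The remaining members are known mainly from tissues other than lung, and most were dim or near the array median, while Foxj2 was bright (9.18 ± 0.39 in wild type lungs). Higher in all 3 pairs were Foxb2 at 0.60, Foxi1, a factor of ionocytes, at 0.78, the neural crest factor Foxd3 at 0.50, Foxs1 at 0.44, Foxp3 at 0.40 and Foxd4 at 0.30. Foxi1 was at 5.77, 5.22 and 7.23 in Smad1 CKO lungs, against 5.23, 5.13 and 5.53 in wild type lungs, and Smad1 CKO 3 gave most of its difference (1.70 in pair 3, against 0.54 and 0.09 in pairs 1 and 2). Foxb2 was at 6.63, 5.82 and 6.71 in Smad1 CKO lungs, against 5.84, 5.66 and 5.87 in wild type lungs (unadjusted p = 0.0373, adjusted p = 0.367). The other 7 members, Foxe3, Foxd2, Foxn1, Foxb1, Foxn4, Foxl2 and Foxj2, ranged from -0.19 to 0.99, with Foxj2 lowest and the eye lens factor Foxe3 highest. Among these 7, Foxb1 at 0.37 and Foxn4 at 0.24 were also higher in all 3 pairs. Foxe3 was at 7.33, 5.82 and 7.15 in Smad1 CKO lungs, against 5.64, 5.86 and 5.84 in wild type lungs. Its difference of 0.99 ± 0.91 (unadjusted p = 0.0341, adjusted p = 0.367) was absent in pair 2 (-0.05).

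Probe sets of the same gene often differed in direction along with their brightness. Of 21 members with several probe sets, 11 had all of them on the same side of 0. Those of Foxk1 gave -0.32 for the brightest and 0.80 and 0.78 for the dimmer ones, those of Foxk2 ranged from -0.75 to 0.45, and those of Foxo3 from -0.39 to 0.66. Of the 23 forkhead probe sets in the bright class, 22 had a negative difference, as had 92.9% of all bright probe sets with a gene name. Of the 28 in the dim class, 22 had a positive difference, beside 76.8% of all such dim probe sets. Without pair 3 the bright members had a median of -0.25 and the dim members one of 0.32, beside -0.16 and 0.15 for all bright and all dim genes.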

How the data were processed

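The authors deposited 1 intensity per probe set and array on a linear scale, as the values show. Per the submitters' processing notes these intensities were made with RMA, a method that corrects background, normalizes and summarises probes. The software version and its settings are not stated in these sources. The deposited arrays did not share 1 distribution: Smad1 CKO 3 had an upper quartile of 170.3, and wild type 2 had 283.8. Whether they had been normalized between arrays was not tested. Control probe sets (64) were left out. Intensities were turned into log2(value + 1), so the deposited intensity was tested on a log2 scale, and differences of dim probe sets are slightly understated. Of 45037 probe sets, 34945 had 1 gene symbol in the platform annotation, 932 several and 9160 none. Of those with 1 symbol, 34741 were matched to RefSeq by gene identifier and 0 symbols changed. The test of genotype used limma 3.58.1 under R 4.3.3 (lmFit, eBayes, two-sided, pair as a fixed block, 2 residual degrees of freedom per probe set before moderation), with Benjamini-Hochberg adjustment over all probe sets at 0.05. Exact permutation of 3 arrays against 3 cannot reach that threshold and was not used.

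Pairs come from the design text and from a letter that the names of both arrays of a pair begin with. Deviations from group means correlated within pairs at 0.26, 0.60 and 0.60 and between pairs at 0.21 or lower. The smallest root mean square distance between 2 arrays was 0.227 (log2), so none was a copy. The number of arrays limits the precision. The fit was tested on simulated data with planted changes. Members, gene lists, tests and most alternatives were chosen with earlier results of these data known. Values on every array are given for 21 members with a known role in lung or as partners of SMADs or of other members, and for up to 6 further members lower and 6 higher with the smallest p and 1 direction in all pairs, some of these by their difference only. From each list the 4 genes with the smallest p were named. Coordinates are those of GRCm38.p6 in RefSeq.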

Additional observations from a re-analysis of the deposited data

How the results depend on the processing

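Under the 12 other settings no forkhead gene passed the adjusted threshold (lowest adjusted p 0.179 with limma). In every setting run for them 22 of the 37 members kept their direction (the filter on dim probe sets left 30 members), and 15 turned in at least 1. Leaving out the block, adding an intensity trend or filtering dim probe sets cannot change a difference, so directions could turn only in the other settings. The mean over all probe sets cannot change it for members with 1 probe set. With limma and no replicate block no call changed, and the adjusted p of Foxf2 was 0.586. Beyond what a setting fixes by its design, the cause of each change below was not tested. Members lower in all 3 pairs numbered 5 after quantile and 4 after cyclic loess normalization, against 11 before. Members higher in all pairs numbered 6 of the 30 left without dim probe sets, and 12 to 17 with 1 pair left out. Leaving out a pair can only keep or raise such a count. The filter on dim probe sets moved counts and medians only by dropping genes. The forkhead median of 0.06 became -0.14 without dim probe sets, 0.20 after quantile and 0.18 after cyclic loess normalization, and 0.20 over all probe sets of a gene. The FOXO-responsive median was -0.033 without Smad1 CKO 3 (3 wild type against 2 Smad1 CKO arrays, unpaired) and -0.017 after cyclic loess normalization, where that of the FOXO regulators was -0.053. The Nodal median was 0.02 to 0.088 with 1 pair left out (0.020 without pair 3), -0.0093 without Smad1 CKO 3 and 0.014 without Smad1 CKO 1 (unpaired), -0.16 without dim probe sets, 0.16 after cyclic loess normalization and 0.20 over all probe sets. Cyclic loess normalization turned Foxa2 to 0.28, Foxc2 to -0.11, Foxj1 to 0.046, Foxj2 to 0.27, Foxk1 to 0.043, Foxk2 to 0.058, Foxo1 to 0.029, Foxo3 to 0.16, Foxp1 to 0.11 and Foxq1 to 0.039. Quantile normalization turned Foxa2 to 0.20, Foxc2 to -0.086, Foxj2 to 0.24, Foxk2 to 0.044, Foxo3 to 0.13, Foxp1 to 0.025 and Foxq1 to 0.14. Unpaired, without Smad1 CKO 3, Foxa2 was 0.15, Foxc1 -0.026, Foxj1 0.084 and Foxm1 -0.14, and without Smad1 CKO 1, Foxa1 was -0.13, Foxc2 -0.14, Foxl2 -0.025 and Foxq1 0.073. Over all probe sets Foxj2 was 0.25 and Foxk1 0.42. With 1 pair left out, Foxa1 ran from -0.38 to 0.54, Foxa2 ran from -0.43 to 0.059, Foxc1 ran from -0.011 to 1.19, Foxl2 ran from -0.13 to 0.15, Foxm1 ran from -0.055 to 0.23, Foxn1 ran from -0.054 to 0.65 and Foxq1 ran from -0.47 to 0.16. Settings that drop single arrays, the block or add an intensity trend gave no counts over pairs. Of the dim members, signal near background limits what any of these values can show.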
